A study of Mus musculus with 48 samples.

Results

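Transcripts of 10 genes of the BCL2 family, which decides whether a cell enters apoptosis, were followed after transcription was blocked in mouse embryonic stem cells (mESCs). The members, taken by gene symbol, were Hrk, Bbc3, Pmaip1, Bcl2l11, Bid, Bad, Mcl1, Bcl2l1, Bax and Bak1, which are 10 of 23862 gene identifiers in the data. The cells were E14TG2a, an established mESC line for which the labels give no altered gene, kept in 2i medium with serum and LIF, and every library came from cells given 1 µM flavopiridol. Flavopiridol inhibits CDK9, whose activity lets RNA polymerase II leave its pause near the promoter and elongate. Polyadenylated RNA was sequenced at 30, 60, 120 and 240 min from whole cells (total RNA) as well as from nuclear, cytosolic and membrane fractions, which digitonin and then NP-40 separate, with cycloheximide, an inhibitor of translation, in the harvest buffers. Each of these 16 groups held 3 independently passaged replicates, 48 libraries in all. The compound was present in every group, no untreated library was analysed here, and the 0 min libraries enter only as the denominator. Each value is therefore a ratio of a transcript's level to that at 0 min, taken within a fraction, and a ratio of 1 means no change. Ratios follow a transcript over time within a compartment and do not say how much of it each compartment held. The authors scaled libraries on genes with half-lives over 14 h, so each ratio is relative to those genes. It measures neither the number of cells nor the RNA content of a cell.

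A library listed between 15067 and 19501 genes, and a gene at 0 is not listed. The read depth is unknown, so no counting error can be given for single genes. Of 5 markers of mESCs, Pou5f1, Sox2 and Nanog were listed in all 48 libraries, Zfp42 in 47 and Esrrb in 37. Of the members, 8 were listed in all 48 libraries, Bad in 44 and Bax in 9. The nuclear library of replicate 1 at 30 min stood apart, with a median log2 ratio of -0.76 over genes against -0.08 and -0.28 in the other nuclear libraries of that time.

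BCL2 proteins act at the outer mitochondrial membrane, where the pore-forming effectors BAX and BAK1 release cytochrome c. Anti-apoptotic members such as MCL1 and BCL-XL, the product of Bcl2l1, hold the effectors in check. The BH3-only proteins, here HRK, PUMA (Bbc3), NOXA (Pmaip1), BIM (Bcl2l11), BID and BAD, bind the anti-apoptotic proteins or the effectors and tip the balance towards death. MCL1 is known for the short life of both its mRNA and its protein, and inhibitors of transcription are known to deplete it.

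Short-lived mRNAs often carry AU-rich elements in the 3′ UTR, whose core is the pentamer AUUUA. The sense strand of the 3′ UTR was searched in 1 annotated transcript per gene (GENCODE, GRCm38), with overlapping matches counted. This was the coding transcript with the longest 3′ UTR. Of 9646 protein-coding genes with a slope in total RNA, 70.6% held at least 1 pentamer, and the median gene held 2. Mcl1 (chr3:95658788-95663176, plus strand) had 8 in 2353 bases of 3′ UTR, Hrk (chr5:118164648-118189478, plus strand) 7 in 5068 bases, Bcl2l11 (chr2:128126038-128162547, plus strand) 6 in 4218 bases and Pmaip1 4 in 2192 bases. Bad and Bcl2l1 (chr2:152780668-152831728, minus strand) had 1 each, and Bbc3 (chr7:16308393-16318205, plus strand), Bid (chr6:120891930-120916853, minus strand), Bax and Bak1 (chr17:27019810-27029009, minus strand) had 0. The longer motif UUAUUUAUU, which contains the pentamer, was in the 3′ UTR of 8.221% of genes and in that of 0 members. The 30-base windows with the most pentamers, in capitals, are shown for a pair of transcripts that fell and for the transcript that rose, because the pentamer was found in transcripts that went either way. They lie in the 3′ UTR at chr3:95662590-95662619, chr2:128161345-128161374 and chr5:118184614-118184643, all on the plus strand. The windows of Mcl1 and Bcl2l11 hold 2 pentamers each. No 30-base window of Hrk held more than 1, and the first of those with 1 is shown.
Mcl1: AUUUAuccuugaucauaguuugcuuAUUUA
Bcl2l11: gauguuguauAUUUAuuuuccgcuuAUUUA
Hrk: cuacagagagagccaccccagugcuAUUUA

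Hrk, the BH3-only gene harakiri, was the member that rose. In total RNA its ratios were 0.590, 0.491 and 0.997 at 30 min, 0.643, 0.809 and 0.794 at 60 min, 0.843, 1.32 and 1.33 at 120 min, and 4.37, 4.67 and 4.35 at 240 min. All 3 values at 240 min lay above all 9 earlier ones, while those of 30 min overlapped those of 60 and of 120 min. The cytosol gave 5.18, 5.41 and 5.69 at 240 min after 1.09, 1.16 and 1.28 at 120 min. In the membrane fraction the values were 4.07, 5.18 and 5.44 at 240 min and 1.46, 1.297 and 1.43 at 120 min. The nuclear mean was the lowest of the 4 at each time, with 0.622, 0.784 and 0.651 at 120 min and 2.34, 2.53 and 2.65 at 240 min. At 240 min the nuclear libraries did not overlap those of any other fraction. Change was tested with limma as a linear trend of the log2 ratio over time, called the slope, with Benjamini-Hochberg adjustment over all genes of a fraction. The Hrk slope was 0.81 ± 0.07 log2 units per h (SE, n = 12 libraries) in total RNA (adjusted p = 9.73e-07), 0.65 ± 0.09 in nuclear RNA (2.44e-05), 0.75 ± 0.08 in cytosolic RNA (2.27e-06) and 0.73 ± 0.06 in membrane RNA (2.11e-07). Of 12762 genes tested in total RNA, 5 had a higher slope than Hrk. The number was 31 of 13343 in nuclear RNA, 7 of 11979 in cytosolic RNA and 10 of 12408 in membrane RNA.

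The rise of Hrk was mostly a matter of the last interval. From 120 to 240 min its log2 ratio in total RNA gained 1.97 ± 0.26 (limma, adjusted p = 3.51e-04). Over 30, 60 and 120 min alone the slope was 0.54 ± 0.18 in total RNA (limma, adjusted p = 0.0304) and 0.46 ± 0.10 in membrane RNA (0.00369). Over that window it was 0.30 ± 0.21 in nuclear RNA (0.288) and 0.24 ± 0.10 in cytosolic RNA (0.0832), so neither passed the threshold of 0.05. Fewer genes rose in all there, 226 of 13343 in nuclear RNA and 144 of 11979 in cytosolic RNA, in place of 443 and 353. Hrk kept its direction in each fraction under both other library scalings, with slopes from 0.59 to 1.04.

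**Figure D1:**
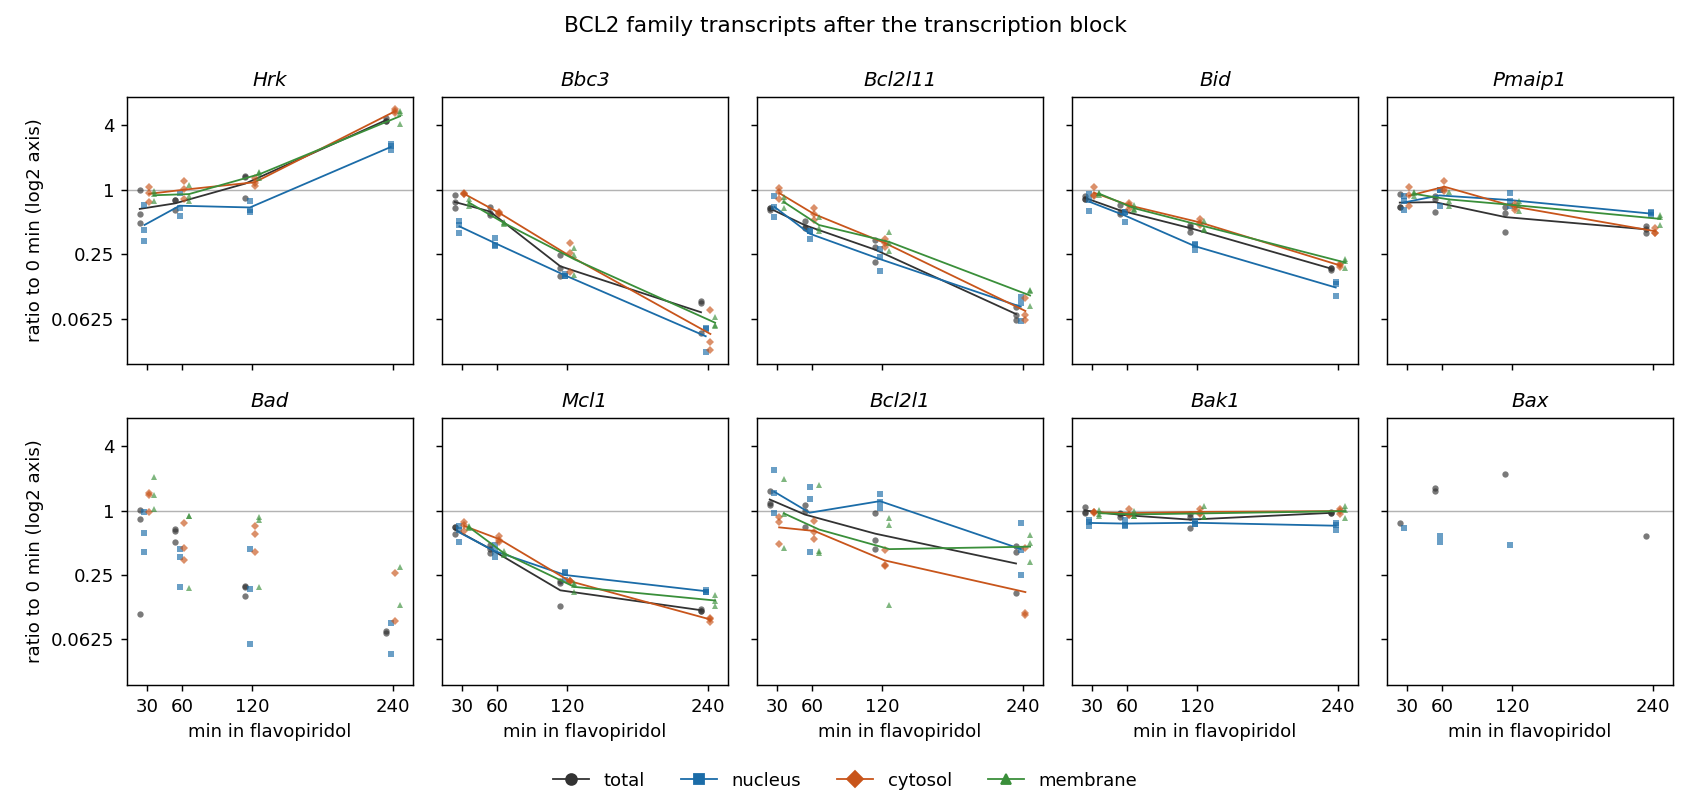
Ratio to 0 min (log2 axis) of each member against minutes in flavopiridol, 1 point per library, with lines through the geometric means of 3 replicates where all 12 libraries of a fraction list the gene. Hrk climbs to between 2.34 and 5.69 at 240 min, Bak1 stays between 0.664 and 1.10, and Bad, Bcl2l1 and Bax scatter or have missing libraries.

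Bbc3, Bcl2l11 and Bid, the BH3-only genes of PUMA, BIM and BID, fell in each compartment. Bbc3 in total RNA had ratios of 0.884, 0.759 and 0.674 at 30 min, 0.582, 0.692 and 0.606 at 60 min, 0.243, 0.187 and 0.156 at 120 min, and 0.0919, 0.0864 and 0.0461 at 240 min. From 60 min on, no time point of Bbc3 overlapped the next. Its slope was -1.01 ± 0.09 log2 units per h in total RNA (limma, adjusted p = 8.38e-07), and 4.18% of genes had a lower slope. Bbc3 had the steepest fall of the tested members in every fraction, with -0.97 ± 0.07 in nuclear RNA, -1.25 ± 0.08 in cytosolic RNA and -1.06 ± 0.06 in membrane RNA. In the nucleus it was already at 0.393, 0.508 and 0.468 at 30 min, whereas the cytosol held 0.930, 0.912 and 0.902.

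Bcl2l11 went from 0.678, 0.680 and 0.648 at 30 min to 0.0679, 0.0801 and 0.0600 at 240 min in total RNA. All of its 240 min values lay below all values of the earlier times. The slope was -0.93 ± 0.06 in total RNA (limma, adjusted p = 3.76e-08), -0.84 ± 0.08 in nuclear RNA, -1.03 ± 0.05 in cytosolic RNA and -0.79 ± 0.06 in membrane RNA. Bid was the most even of the falling members between replicates, at 0.827, 0.822 and 0.870 after 30 min and 0.178, 0.187 and 0.185 after 240 min in total RNA. The Bid slope was -0.62 ± 0.03 in total RNA (limma, adjusted p = 2.24e-08), -0.76 ± 0.06 in nuclear RNA, -0.64 ± 0.03 in cytosolic RNA and -0.60 ± 0.04 in membrane RNA. Pooled over the 16 groups, the SD of the log2 ratio between replicates was 0.14 for Bid, 0.25 for Bcl2l11 and 0.31 for Bbc3.

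Pmaip1, which encodes the MCL1-binding protein NOXA, fell least of the called members. Its ratios in total RNA were 0.694, 0.908 and 0.689 at 30 min and 0.460, 0.428 and 0.393 at 240 min. In the cytosol they were 0.710, 1.06 and 0.901 at 30 min and 0.392, 0.440 and 0.396 at 240 min. The 30 and 240 min libraries overlapped in none of the fractions, but 60 min values reached 1.21 in cytosolic RNA. The slope was -0.25 ± 0.06 in total RNA (limma, adjusted p = 0.00139), -0.37 ± 0.05 in cytosolic RNA (2.71e-05), -0.22 ± 0.03 in membrane RNA (1.23e-04) and -0.13 ± 0.05 in nuclear RNA (0.0397). The total and membrane slopes lay close to the median slopes of all genes, which were -0.22 and -0.26. With libraries centred on the median gene, Pmaip1 was at -0.03 ± 0.05 in total RNA (0.648), 0.05 in membrane RNA (0.321) and 0.19 ± 0.06 in nuclear RNA (0.0244), so its fall did not hold relative to that gene and in nuclear RNA was turned around. The nuclear call was also lost when any single replicate was left out, with adjusted p from 0.0812 to 0.220.

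Bad, a BH3-only gene whose protein is controlled by phosphorylation, was missing from 1 library at 240 min in each fraction and had no place in the test across all 12 libraries. Its total RNA values were 1.02, 0.844 and 0.108 at 30 min, 0.642, 0.510 and 0.673 at 60 min, 0.160, 0.196 and 0.194 at 120 min, and 0.0715 and 0.0749 at 240 min. Apart from replicate 3 at 30 min, the total RNA libraries of each time lay below all those of the time before. In each of the other fractions the libraries of 60 and 120 min overlapped. In membrane RNA they were at 0.188, 0.891 and 0.897 at 60 min and at 0.872, 0.826 and 0.191 at 120 min. Among genes listed in at least 9 of 12 libraries, a filter added after the data were seen, its slope from the 11 listed libraries was -0.86 ± 0.21 in total RNA (limma, adjusted p = 0.00512), -0.90 ± 0.20 in nuclear RNA (0.00222), -0.74 ± 0.15 in cytosolic RNA (0.00144) and -0.71 ± 0.23 in membrane RNA (0.0191).

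Mcl1, the anti-apoptotic member that binds BIM and NOXA, fell early. In total RNA the ratios were 0.599, 0.705 and 0.702 at 30 min, 0.402, 0.440 and 0.482 at 60 min, 0.127, 0.209 and 0.219 at 120 min, and 0.116, 0.116 and 0.120 at 240 min. The groups of 30, 60, 120 and 240 min did not overlap, although the last step was small. The slope was -0.70 ± 0.09 in total RNA (limma, adjusted p = 2.08e-05), -0.49 ± 0.07 in nuclear RNA (3.52e-05), -0.84 ± 0.06 in cytosolic RNA (3.75e-08) and -0.61 ± 0.09 in membrane RNA (4.74e-05). A single slope describes Mcl1 less well than Bcl2l11, because most of its loss came before 120 min. In the nucleus the call was lost when libraries were scaled to mitochondrially encoded mRNAs, at -0.30 ± 0.15 (0.144).

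Bcl2l1, which encodes BCL-XL, had the widest replicate spread of the tested members, with a pooled SD of the log2 ratio of 0.80 against 0.12 to 0.31 for the other members tested. In total RNA it was at 1.12, 1.19 and 1.54 at 30 min and 0.470, 0.411 and 0.171 at 240 min, and these groups did not overlap. In the membrane fraction it was at 0.933, 1.99 and 0.451 at 30 min and 0.589, 0.497 and 0.334 at 240 min, and these groups did overlap. The slope was -0.55 ± 0.10 in total RNA (limma, adjusted p = 3.04e-04), -0.60 ± 0.12 in cytosolic RNA (7.77e-04), -0.45 ± 0.15 in nuclear RNA (0.0157) and -0.26 ± 0.21 in membrane RNA (0.276). The nuclear call was lost without replicate 2 (0.0577) and without replicate 3 (0.207).

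Bak1, which encodes a pore-forming effector, showed no slope past the threshold in any fraction. Its total RNA values were 0.959, 0.966 and 1.09 at 30 min, 0.932, 0.948 and 0.865 at 60 min, 0.691, 0.865 and 0.934 at 120 min, and 0.962, 0.941 and 0.954 at 240 min. Over all 12 libraries its ratio ranged from 0.902 to 1.04 in cytosolic RNA, from 0.862 to 1.10 in membrane RNA and from 0.664 to 0.822 in nuclear RNA. Nuclear and cytosolic Bak1 libraries did not overlap, and in nuclear RNA the ratio had a mean of 0.768 ± 0.047 at 30 min and 0.724 ± 0.056 at 240 min (SD over 3 replicates). The slope was -0.01 ± 0.04 in total RNA (limma, adjusted p = 0.828), -0.02 ± 0.03 in nuclear RNA (0.538), 0.01 ± 0.02 in cytosolic RNA (0.570) and 0.02 ± 0.03 in membrane RNA (0.552). With libraries centred on the median gene, Bak1 was called higher in all 4 fractions, with slopes from 0.22 to 0.30, that is, it rose relative to that gene. With mitochondrially encoded mRNAs as the scale it was called lower in total RNA, at -0.12 (limma, adjusted p = 0.0385).

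Bax, the other effector, was listed in 5 total and 4 nuclear libraries and in none from the cytosol or the membrane fraction. Its total RNA values were 0.768 at 30 min, 1.61 and 1.54 at 60 min, 2.21 at 120 min and 0.585 at 240 min, and the nuclear ones ranged from 0.482 to 0.682. No test of Bax was made. Other genes that cells commonly express, such as Vdac3, were also unlisted in all 48 libraries, so the gaps cannot be read as absence of the transcript.

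Of the 8 members tested in total RNA, 6 fell and 1 rose by limma at an adjusted p under 0.05, where 56.9% of all genes fell and 3.39% rose. The nucleus also had 6 falling and 1 rising, against 61.9% and 3.32% of all genes. The cytosol had 6 and 1, against 67.1% and 2.95%, and the membrane fraction 5 and 1, against 62.2% and 4.09%. The median member slope was -0.58 in total RNA, -0.47 in nuclear RNA, -0.62 in cytosolic RNA and -0.43 in membrane RNA, and the medians over all genes were -0.22, -0.30, -0.28 and -0.26. The counts of falling members were close to what the share over all genes gives for 8 genes. The 6 falling members were the same genes in total RNA, nucleus and cytosol, and the membrane fraction had these without Bcl2l1. The reference chosen for scaling set how many fell. Centred on the median gene, 5 members fell and 2 rose in total RNA, 4 and 3 in nuclear RNA, 5 and 2 in cytosolic RNA and 4 and 2 in membrane RNA. Over all genes in total RNA, centring gave 3961 that fell and 3672 that rose in place of 7262 and 432. Of 13343 genes in nuclear RNA 3897 fell and 3954 rose. The numbers were 3887 and 3520 of 11979 in cytosolic RNA and 3837 and 3513 of 12408 in membrane RNA. Scaled to mitochondrially encoded mRNAs, 7, 3, 5 and 5 members fell in the same order of fractions and 1 rose in each. On that scale 8935 of 12762 genes fell and 134 rose in total RNA, and 2926 and 625 of 13343 in nuclear RNA. In cytosolic RNA 3539 of 11979 genes fell and 408 rose, and in membrane RNA 9343 and 98 of 12408.

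**Figure D2:**
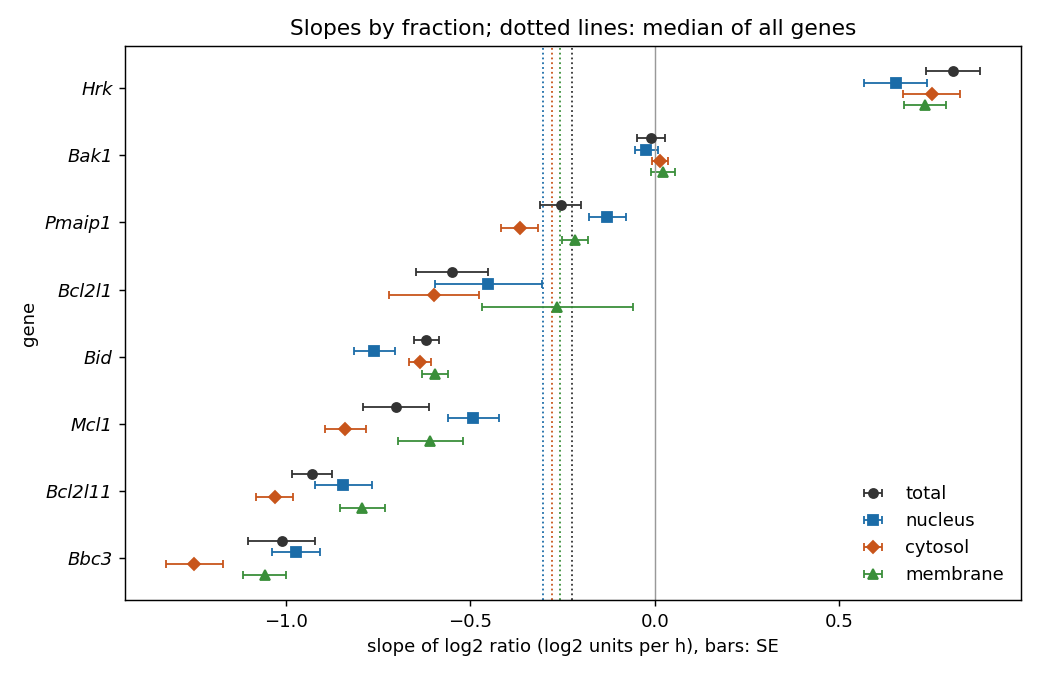
Slope of the log2 ratio on time for the 8 tested members (x axis, log2 units per h, bars are SE over 12 libraries) in each fraction, with dotted lines at the median slope of all genes. Hrk lies at 0.65 to 0.81 in all 4 fractions, Bak1 between -0.02 and 0.02, and Bbc3 at -0.97 to -1.25.

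**Figure D3:**
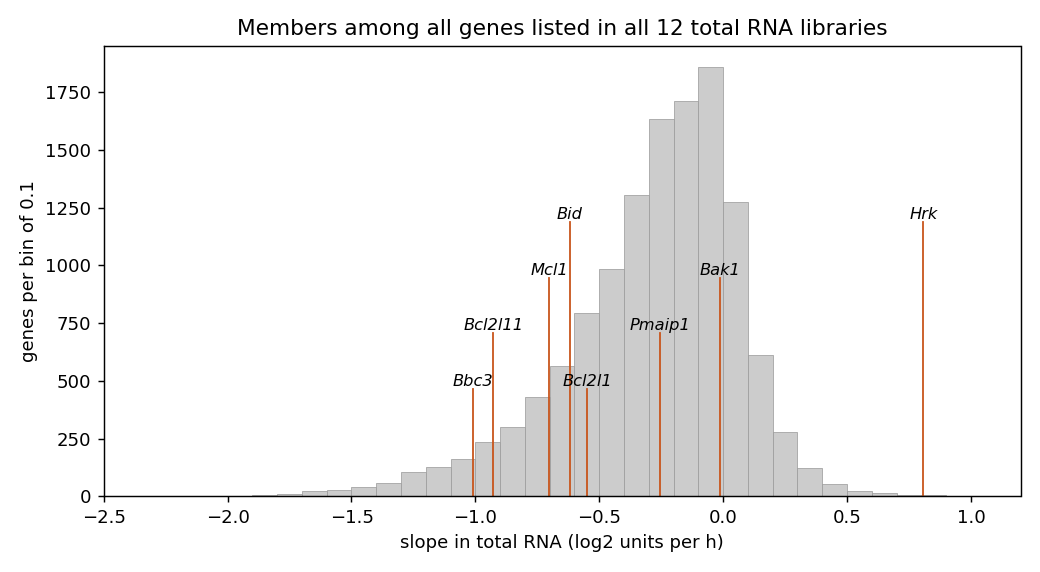
Number of genes per bin of slope (0.1 log2 units per h wide) in total RNA for 12762 genes, with each tested member marked by an orange line whose height has no meaning. Hrk at 0.81 lies in the upper tail, Bak1 at -0.01 is above most genes, and Bbc3 at -1.01 and Bcl2l11 at -0.93 are in the lower tail.

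When the members changed was asked from the steps between neighbouring times in total RNA. From 30 to 60 min none of the 8 members passed the threshold by limma, where 2.32% of all genes fell and 0.0470% rose past it. At an unadjusted p under 0.05, 3 members fell, and the share of all genes at that p was not computed. From 60 to 120 min 4 fell and none rose, against 26.5% and 0.650% of all genes. These were Bbc3, which lost 1.70 ± 0.28 log2 units (limma, adjusted p = 0.00246), Mcl1, which lost 1.29 ± 0.21 (0.00256), Bcl2l11, which lost 0.76 ± 0.20 (0.0192), and Bid, which lost 0.55 ± 0.12 (0.00807). Hrk had an unadjusted p of 0.0414 in the upward direction in that step. Without replicate 1, 2 or 3 the members that fell numbered 2, 0 and 1, and the genes that fell 1620, 368 and 294 of 12762 in place of 3381. The median member step stayed between -0.55 and -0.63, against -0.57 with all replicates. From 120 to 240 min 4 fell and 1 rose, against 29.2% and 5.92% of all genes. Bcl2l11 lost 2.00 ± 0.20 (limma, adjusted p = 7.32e-05), Bbc3 1.43 ± 0.28 (0.00274), Bid 1.26 ± 0.12 (5.73e-05) and Mcl1 0.62 ± 0.21 (0.0443), and the riser was Hrk. The Mcl1 call was lost without replicate 2 (0.338) and without replicate 3 (0.317).

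Whether the members changed at another pace in nuclear RNA than in cytosolic RNA was tested by the interaction of time with fraction over 24 libraries. In the study's methods the fractions are extracted in turn from the same cells. The test took the 24 libraries as independent and did not pair fractions of a harvest. By limma 3 of 8 members had a higher, that is, less negative, slope in nuclear RNA and none a lower one, against 12.3% and 8.30% of all genes. Mcl1 differed by 0.35 ± 0.08 log2 units per h (adjusted p = 0.00640), Bbc3 by 0.28 ± 0.10 (0.0446) and Pmaip1 by 0.24 ± 0.07 (0.0195). At 240 min nuclear Mcl1 was at 0.174, 0.175 and 0.180 and cytosolic Mcl1 at 0.0917, 0.0968 and 0.100, with no overlap. Nuclear Pmaip1 was at 0.616, 0.577 and 0.602 and cytosolic Pmaip1 at 0.392, 0.440 and 0.396, again apart. Bbc3 was different, because its fractions overlapped at 240 min and were apart at 30, 60 and 120 min, when the nucleus was the lower. None of these 3 calls held without replicate 1 (limma, adjusted p from 0.0569 to 0.417) or without replicate 3 (0.0969 to 0.425), and Mcl1 (0.0503) and Pmaip1 (0.0736) were also lost without replicate 2. The 2 members called with a higher nuclear slope without replicate 2 were therefore not both among these 3. Without a replicate fewer genes were called in all, from 337 to 694 with a higher nuclear slope in place of 1377, while the difference stayed at 0.32 to 0.37 for Mcl1 and 0.22 to 0.25 for Pmaip1. For Bbc3 it was 0.18 without replicate 1 and 0.16 without replicate 3. Scaled to mitochondrially encoded mRNAs, the differences were as large, at 0.36, 0.29 and 0.25 for Mcl1, Bbc3 and Pmaip1, but adjusted p ran from 0.456 to 0.628, and 15 of 11232 genes were called in all. Without the nuclear 30 min library of replicate 1, which stood apart, Mcl1 and Pmaip1 stayed past the threshold and Bbc3 did not (0.0629).

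Between the membrane fraction and the cytosol none of the 8 members differed in slope past the threshold by limma. Over all genes 4.94% had a higher and 1.76% a lower slope in membrane RNA past that threshold. At an unadjusted p under 0.05, 3 members had a higher slope in membrane RNA, and the share of all genes at that p was not computed. The member nearest the threshold was Bcl2l11, with a difference of 0.24 ± 0.08 (limma, adjusted p = 0.0619). It passed without replicate 2 (0.0252) and turned to -0.05 with mitochondrially encoded mRNAs as the scale.

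Half-lives were taken from a single exponential with a free starting level, with the SD over fits to the 3 replicate series as the error. In total RNA the order was Bbc3 with 54.9 ± 3.7 min, Mcl1 with 55.6 ± 5.4 min, Bcl2l11 with 67.7 ± 12.01 min, Bid with 95.4 ± 5.4 min, Bcl2l1 with 102 ± 16 min and Pmaip1 with 230 ± 48 min. Neighbours did not differ beyond their spread within Bbc3, Mcl1 and Bcl2l11 or between Bid and Bcl2l1. All Bid series, from 89.2 to 99.4 min, were longer than all of the first 3 genes, and all Pmaip1 series, from 195 to 292 min, longer than those of the other falling members. The order depended on the fit. With the starting level fixed at 1, Mcl1 had 52.2 min, Bcl2l11 58.2 min, Bbc3 67.6 min and Bcl2l1 217 min. A straight line on the log2 scale gave 85.6 min for Mcl1. With libraries centred on the median gene, the values were 77.2 min for Bbc3, 96.7 min for Mcl1, 103 min for Bcl2l11, 172 min for Bid, 208 min for Bcl2l1 and 2161 min for Pmaip1. In the fit with a free starting level the median over all genes was 244 min, and 7.85% of genes had a shorter half-life than Bbc3. Bak1 had no half-life that could be pinned down, with single series from 2511 to 56506 min in total RNA, and Hrk, which rose, had none in any fraction.

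Within the compartments Bbc3 stayed between 48.7 ± 5.7 min in cytosolic RNA and 59.5 ± 8.4 min in nuclear RNA. Mcl1 was at 86.4 ± 19.3 min in nuclear RNA, 59.5 ± 5.4 min in cytosolic RNA and 52.9 ± 2.2 min in membrane RNA, and its nuclear replicate series, from 72.4 to 109 min, lay above all cytosolic ones, from 55.8 to 65.9 min. The order turned with the starting level fixed at 1, which gave Mcl1 54.5 min in nuclear and 62.4 min in cytosolic RNA, and Bbc3 33.6 and 74.7 min. Pmaip1 had the widest span, with 497 ± 171 min in nuclear RNA, 178 ± 42 min in cytosolic RNA and 274 ± 76 min in membrane RNA. The nuclear half-life of Bid was 69.6 ± 20.3 min, and its replicate series, up to 93.9 min, overlapped those of the cytosol, which had a value of 94.6 ± 14.3 min. The nuclear Bcl2l11 value was 52.1 ± 20.8 min and the cytosolic one 55.4 ± 6.9 min. Bcl2l1 ranged from 17.5 to 222 min between membrane series.

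**Figure D4:**
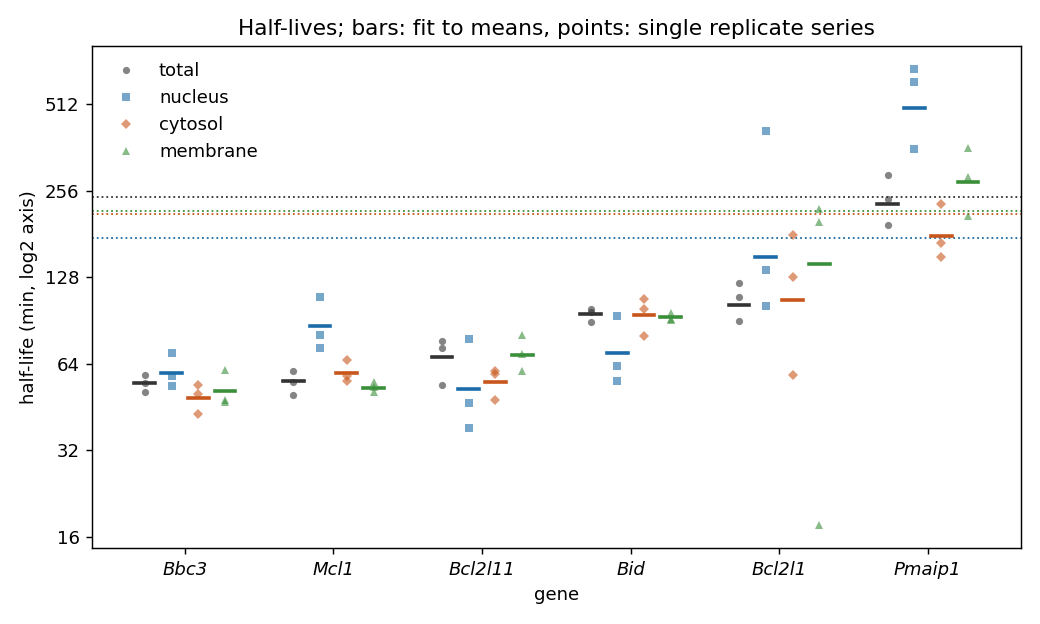
Half-life in minutes (log2 axis) of the 6 members that fell in total RNA, by fraction, with bars for the fit to the replicate means, points for single replicate series and dotted lines for the median of all genes. The bars of Bbc3, Mcl1 and Bcl2l11 lie between 48.7 and 86.4 min and those of Pmaip1 between 178 and 497 min, and the points of Bcl2l1 spread from 17.5 to 415 min.

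The genes whose profile over the 16 group means was most like that of each member were found by the root mean square difference of log2 ratios among 8601 genes. Hrk was closest to Nupr1, a stress-induced nuclear protein, at 0.35 log2 units, against a median of 1.74 over all genes. Nupr1 reached 3.72 at 240 min in total RNA from 0.932 at 30 min. Bak1 was closest to Nf2, the gene of merlin, at 0.08. Bid was closest to Gfer, a sulfhydryl oxidase of the mitochondrial intermembrane space, at 0.13, and Pmaip1 to Hmox2, the constitutive heme oxygenase, at 0.13. Bcl2l11 was closest to Trp53rka at 0.16, Mcl1 to Rbm48 at 0.17 and Bbc3 to Grpel2, a co-chaperone of mitochondrial import, at 0.22. Bcl2l1 had its closest gene, Platr25, at 0.32, beside a median of 0.91. All these profiles come from the same libraries and share their scaling.

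The other genes of the apoptosis pathway on the list, 42 in all, gave 31 with a slope in total RNA. Of these 20 fell and none rose by limma, against 56.9% and 3.39% of all genes, and 0 of the 31 had an unadjusted p under 0.05 upwards. Their median slope was -0.30, between that of all genes and that of the members. The lowest was Birc5, the gene of survivin, an inhibitor of apoptosis with a mitotic role, which went from 0.365, 0.539 and 0.505 at 30 min to 0.0103, 0.0108 and 0.00448 at 240 min. Its slope was -1.50 ± 0.20 (limma, adjusted p = 3.34e-05). Bmf, another BH3-only gene, had -0.75 ± 0.11 (5.61e-05) and Dffb, the caspase-activated nuclease, -0.68 ± 0.06 (1.07e-06). The slopes nearest 0 among the called genes were those of Casp9, the initiator caspase of the apoptosome, at -0.12 ± 0.03 (0.00674), of Usp9x, a deubiquitinase of MCL1, at -0.14 ± 0.04 (0.00742), and of Aifm1, a mitochondrial flavoprotein, at -0.16 ± 0.06 (0.0471). Among the 8 caspases and apoptosome genes tested 6 fell, among the 7 inhibitors of apoptosis and their antagonists 4, and among the 3 other BCL2-related genes 3. Of the remaining lists, 1 of 2 other BH3-only genes fell, 2 of 4 mitochondrial proteins of cell death, 2 of 3 ligases and deubiquitinases of MCL1, 1 of 2 dynein light chains that bind BH3-only proteins, and Bok, a further effector. Bcl2, the other anti-apoptotic gene tested, had -0.35 ± 0.18 (limma, adjusted p = 0.104). In the nucleus 21 of 33 fell, in cytosolic RNA 24 of 31 and in membrane RNA 22 of 31, and none rose in any of them, also at an unadjusted p under 0.05. Over all genes 61.9%, 67.1% and 62.2% fell by limma in these fractions, and 3.32%, 2.95% and 4.09% rose.

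**Figure D5:**
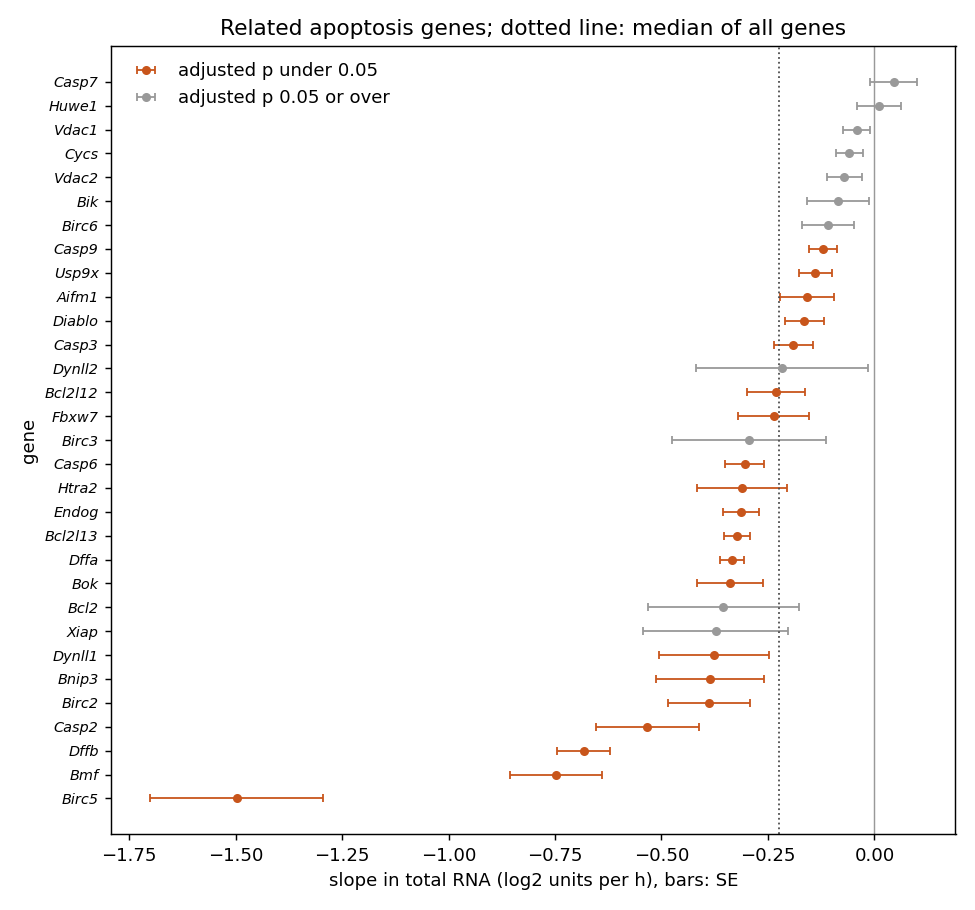
Slope in total RNA (x axis, log2 units per h, bars are SE over 12 libraries) of the 31 related apoptosis genes, orange where the adjusted p is under 0.05, with a dotted line at the median of all genes. Birc5 lies lowest at -1.50, and none of the called genes has a slope above 0.

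Members with many pentamers and members with none were found among both the fast and the slow. Mcl1, with 8 pentamers, and Bbc3, with 0, had half-lives of 55.6 and 54.9 min in total RNA, Hrk with 7 rose, Bid with 0 fell, and Bak1 with 0 had a slope near 0. Over all genes the median slope in total RNA was -0.18 for 2836 genes without a pentamer, -0.24 for 3858 genes with 1 to 3 and -0.28 for 2952 genes with 4 or more. The medians were not adjusted for 3′ UTR length, and an effect of the pentamer was not tested. These numbers describe annotated sequence, and which 3′ UTRs the cells used was not examined.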

How the data were processed

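The deposited values are ratios to 0 min, 1 per gene and library, in 48 libraries of polyadenylated RNA. According to the methods and the submitters' processing notes, the authors mapped reads to mm10 with STAR 2.7.6, quantified them with RSEM 1.3.3, scaled libraries on genes with half-lives over 14 h and divided by the 0 min level. That scaling fixes the direction of slow changes. Genes at 0 are not listed, depth is unknown, and intervals or floors could not be computed. Groups came from the titles, which give 240 min as the last time where the protocol text gives 180 min. Of 23862 identifiers, 23786 matched a symbol. Shared replicate numbers were not taken as pairs. The members and the lists of related genes were chosen with earlier results of these data known.

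Genes present in each of a fraction's 12 libraries were tested on log2 of the ratio, with no pseudocount, by limma 3.58.1 in R 4.3.3 (two-sided, with trend, called at a p under 0.05 after Benjamini-Hochberg adjustment). Slopes used 12 libraries of a fraction, slope differences 24, and steps the 4 times of total RNA as groups. Half-lives were fitted to the untransformed ratios as A·exp(-kt) by least squares with NumPy 2.4.6 in Python 3.11.15. The limma slope fit and the half-life fit were tested on simulated data. Named genes were the 10 members, the 3 lowest and 3 highest slopes among called related genes in total RNA, and 1 nearest gene per member listed in all 48 libraries, skipping Gm-numbered and Rik genes. Vdac3 was named after its values were seen. Positions and 3′ UTRs are from GENCODE on GRCm38, in a later release than the study used. Alternatives covered the pseudocount, the listing filter, library scaling, a replicate block, leaving out each replicate, limma without trend, a shorter window, 180 min as the last time, the nuclear library that stood apart left out, and other half-life fits.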

Additional observations from a re-analysis of the deposited data

Results flagged for a closer look

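The slope differed between nucleus and cytosol, by limma's test of the interaction, for 3 members. The slope from 30 to 240 min was less negative in nuclear than in cytosolic RNA by 0.35 log2 units per h for Mcl1, by 0.28 for Bbc3 and by 0.24 for Pmaip1. The Bbc3 mean was lower in nuclear RNA at each time, with the wider gap at 30 min. The calls were lost with fewer replicates, while the differences of Mcl1 and Pmaip1 stayed about as large, as given with the comparison. No member was searched for outlying samples within a group, since each group held 3.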

How the results depend on the processing

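Library scaling and the replicates kept moved the member counts. The scaling moved the median slope of all genes from -0.22 to -0.33 in total RNA, from -0.30 to -0.11 in nuclear RNA, from -0.28 to -0.12 in cytosolic RNA and from -0.26 to -0.40 in membrane RNA when mitochondrially encoded mRNAs were the scale, and to about 0 by construction when libraries were centred on the median gene. Centring gave 2 rising members in total RNA, 3 in nuclear RNA, 2 in cytosolic RNA and 2 in membrane RNA in place of 1 each, and 1 member with a lower and 4 with a higher slope in nuclear RNA than in cytosolic RNA. Of 11232 genes, centring gave 1132 a lower and 1919 a higher nuclear slope. In the steps of total RNA centring gave 2 falling and 1 rising member from 60 to 120 min and 2 rising from 120 to 240 min. Of 12762 genes, 1139 fell and 757 rose from 60 to 120 min with centring, and 2071 rose from 120 to 240 min. The mitochondrial scale gave 3 falling members in nuclear RNA in place of 6, 0 with a slope difference between nucleus and cytosol in place of 3 (with a median member difference of 0.18 in place of 0.17, and 15 of 11232 genes called), and 1 falling from 30 to 60 min in place of 0. A pseudocount of 0.1 also gave 1 in that step. Of 12762 genes, 373 fell in that step with the mitochondrial scale and 1272 with the pseudocount, in place of 296.

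With 30, 60 and 120 min only, 0 members and 226 of 13343 genes rose in nuclear RNA. In cytosolic RNA 0 members and 144 of 11979 genes rose. Between nucleus and cytosol 0 members and 931 of 11232 genes differed in slope. Limma without trend gave 1 member and 551 of 11086 genes a higher membrane than cytosolic slope. With each replicate left out, 0 to 2 members had a higher nuclear than cytosolic slope and 0 to 1 a higher membrane than cytosolic slope. From 60 to 120 min 0 to 2 fell. Fewer samples entered these fits, and fewer genes were called in all. The other causes were not tested.

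Slopes near 0 changed sign or call. Bak1 was at 0.22 with centring and at -0.12, called lower, with the mitochondrial scale in total RNA, at 0.29 with centring, 0.17 with the mitochondrial scale, between -0.041 and 0.010 with a replicate left out and 0.0070 over 30 to 120 min in nuclear RNA, and at -0.12 with the mitochondrial scale and between -0.0086 and 0.068 with a replicate left out in membrane RNA. Pmaip1 was at 0.046 in membrane RNA with centring, and in nuclear RNA at 0.19 with centring, 0.066 with the mitochondrial scale and 0.019 over 30 to 120 min. The difference of Bcl2l11 between membrane fraction and cytosol was -0.055 with the mitochondrial scale. Of 392 recomputed member slopes, 359 kept direction and side of the threshold. Of 225 recomputed half-lives, 152 moved by less than 1 SD over replicate series. The other 73 moved by more or, for nuclear Bak1, had no SD to be compared with. Of these 73, 22 came with centring. Alternatives without a finite half-life are not counted.

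Replicate numbers were shared by the groups, but same-numbered libraries did not pair throughout. The median correlations of their deviations ran from -0.01 to 0.05. All 12 pairs of membrane and cytosolic libraries at one time were above 0, from 0.032 to 0.167, but 1 was over 0.1, and within total RNA 4 of 18 were over 0.1, up to 0.273. With the replicate number as a block, the falling and rising members numbered 6 and 1 in total RNA, nucleus and cytosol and 5 and 1 in membrane RNA, as without it, and the members with a higher slope in nuclear RNA 2 in place of 3, because Bbc3 was at an adjusted p of 0.0549. The block gave the same member counts in the steps, 0, 4 and 4 falling and 1 rising in the last.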
